A study of Mus musculus with 50 samples.

Results

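The genes described here mark both ends of the liver lobule. Cdh1, which encodes E-cadherin, and the enzyme genes Hal, Sds, Gls2 and Hsd17b13 are known as periportal genes, and Glul, Oat, Axin2, Lgr5 and Rgn as pericentral genes. They are 10 of the 24984 gene names counted in every RNA-seq library. The list was chosen by zonation role with the RNA counts of the young, old, DMSO and 3C livers already known, so the liver RNA values of the 10 genes are given as a description without p values, and a count of them past a threshold is a description too. Tests are given for the same genes in kidney, for open chromatin and for genes of other lists.

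Blood enters the liver lobule at the portal tract and leaves at the central vein, and hepatocytes along this path carry different enzymes. Periportal hepatocytes are known for gluconeogenesis, urea formation and the breakdown of amino acids. Pericentral hepatocytes capture the remaining ammonia as glutamine and carry out much of drug metabolism, and their program is maintained by WNT ligands and R-spondins from the endothelium of the central vein, which act through beta-catenin. E-cadherin is the adhesion protein of adherens junctions, and within the lobule it is found on periportal hepatocytes and on bile duct cells.

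The strain was C57BL/6. Untreated kidney and liver came from young female mice of 2.5 months and old female mice of 23 to 25 months, with 4 RNA-seq and 3 ATAC-seq libraries per tissue and age. A further set of RNA-seq libraries came from mice of 20 to 21 months labelled with DMSO, a solvent, or with 3C. It had 4 kidney and 4 liver libraries per treatment. Skin fibroblasts, titled as P9 mice fibroblasts, had 3 libraries for each of DMSO and 3C, and the titles do not say what P9 stands for. What 3C is, and at which dose and for how long it was given, is not in the labels, so it is named here as labelled. The labels also leave out whether the libraries of a group came from separate animals, and the p values therefore measure the spread between these libraries, which may be technical.

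The 38 RNA-seq libraries held 14238228 to 43704147 gene counts, and levels are given as CPM, the gene's count per 1e+06 gene counts of the library. Markers of the labelled tissue were present. Hepatocyte markers summed to 93741 to 178860 CPM in the 16 livers, and kidney tubule and podocyte markers to 0.0858 to 0.408 CPM in the untreated livers, 0.436 to 2.39 CPM in the DMSO livers and 0.646 to 24.6 CPM in the 3C livers. Old kidney replicate 2 stood apart, since its Alb level was 3.58% of the liver level against 0.0189% to 0.0542% in the other old kidneys, and the kidney age values below are followed by values without it. In untreated livers the level also moved with transcript length by a different amount in each library, with log2 slopes per doubling of length from -0.45 in old liver replicate 1 to 0.17 in young liver replicate 2. In bulk tissue, fewer cells of a type and less RNA per cell cannot be told apart.

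Cdh1 (ENSMUSG00000000303, mm10 chromosome 8, 106603351 to 106670246, + strand) was lower in old than in young liver. Its levels were 45.7, 48.0, 36.2 and 27.3 CPM in the young livers and 5.90, 6.97, 3.12 and 3.65 CPM in the old livers. The lowest young library thus lay well above the highest old library, and the groups did not overlap. The mean fell from 39.3 ± 9.51 to 4.91 ± 1.83 CPM (SD, n = 4), a ratio of 8.0 between young and old, and the fitted log2 fold change was -3.02 ± 0.29 (SE). These levels rested on 605 to 1094 reads in each young library and on 63 to 186 in each old one.

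The Cdh1 difference in liver ranged from -3.24 to -2.85 on the log2 scale over the 14 other fits, which included leaving out each library and removing the trend with transcript length. Kidney carries far more Cdh1, and the median of the kidney markers was at 0 in each of the 8 untreated livers. Bile duct cells also make E-cadherin. The 8 cholangiocyte markers summed to 50.4 to 99.6 CPM in young and 54.7 to 102 CPM in old liver. Of these, 0 of the 7 tested passed the thresholds, beside 2.13% of 12537 genes. Their median log2 fold change was -0.33 beside 0.0035 over all genes tested. The part of bile duct cells or of kidney RNA in the Cdh1 difference was not tested.

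In the livers of 20 to 21 months, Cdh1 stood at 17.0, 11.6, 14.6 and 6.84 CPM with DMSO and at 8.04, 5.59, 6.05 and 6.00 CPM with 3C. Of the DMSO libraries, 3 lay above every 3C library and DMSO replicate 4 lay within the 3C range, so the groups overlapped. The log2 fold change was -0.95 ± 0.25 (SE), with a range of -1.16 to -0.80 over the other fits. The DMSO and 3C libraries were handled differently from the untreated ones before deposit, since their tallies of unaligned and multiply aligned reads are all 0, and levels across the sets are set side by side here without a test.

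Kidney held more Cdh1 than any liver. The young kidneys gave 272, 250, 203 and 175 CPM and the old kidneys 159, 271, 128 and 219 CPM, and the groups overlapped. The log2 fold change was -0.26 ± 0.19 (SE; edgeR adjusted p = 0.398), and without old kidney replicate 2 it was -0.43, still short of an adjusted p of 0.05. With 3C, kidney Cdh1 went from a range of 244 to 289 CPM with DMSO to 252 to 287 CPM (log2 fold change 0.07 ± 0.06, edgeR adjusted p = 0.739). Whether the age difference of liver differed from that of kidney was not tested. Skin fibroblasts, which do not build epithelial junctions, held 0 to 0.167 CPM.

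**Figure D1:**
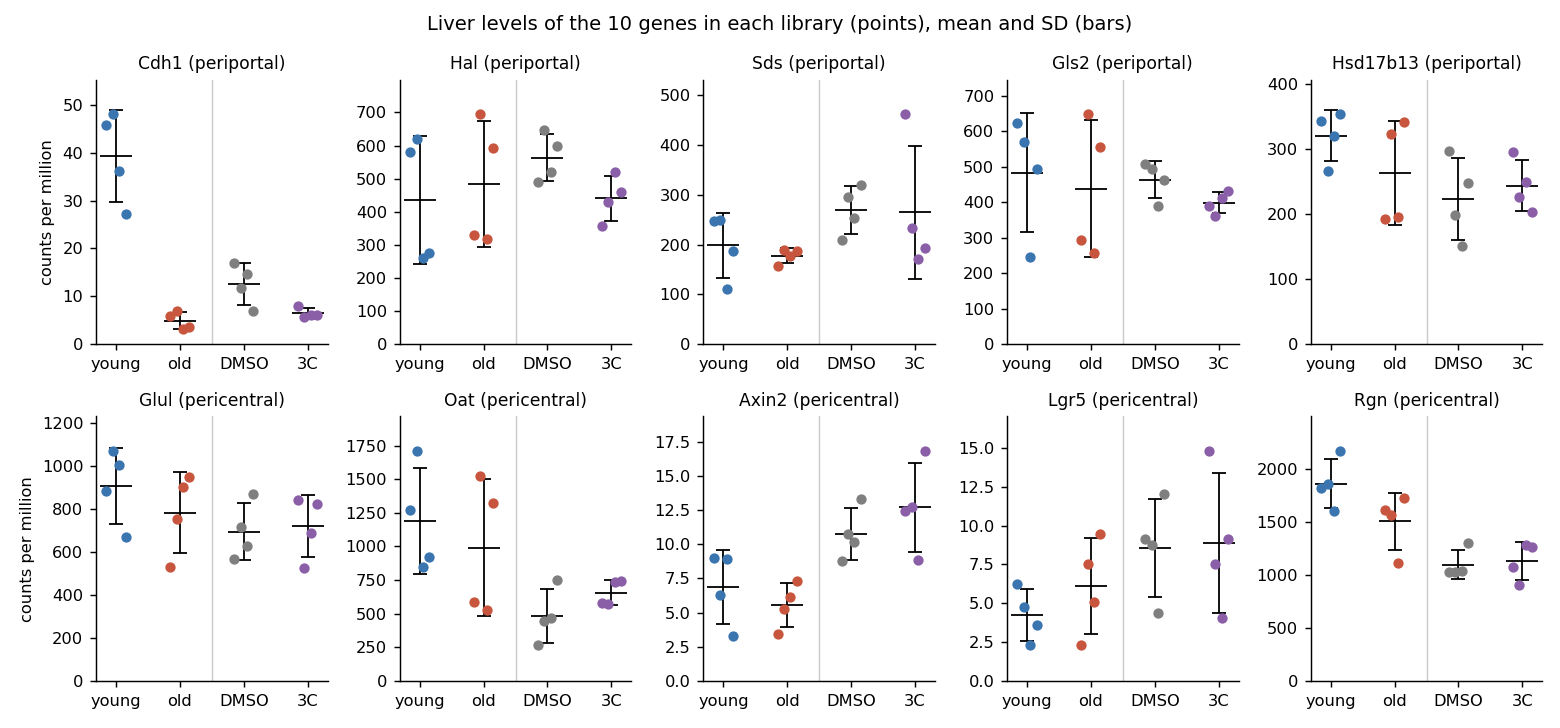
Levels of the 10 genes in liver, in CPM on the vertical axis, for young, old, DMSO and 3C livers on the horizontal axis. Points are libraries and bars are the mean and SD of 4 libraries, and the grey line parts the untreated from the treated set. The old points of Cdh1, at 3.12 to 6.97, lie below all young points, at 27.3 to 48.0, while the young and old points of the other 9 genes overlap.

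Open chromatin at Cdh1 was a separate readout. ATAC-seq peaks were merged over the liver libraries, and the merged regions from 10 kb before to 10 kb after the gene were counted in each library. Young livers had 10, 11 and 9 of these regions and old livers 5, 1 and 5. Every old library thus had fewer regions than every young one, with means of 10 ± 1 and 3.67 ± 2.31 (SD, n = 3) and an exact permutation p = 0.1, the smallest that 3 against 3 libraries allow. Fewer regions in every old liver were found at 5.22% of all gene loci, and at 11.1% of the 7248 loci with a young mean of at least 5 regions. Of those 7248 loci, 0.414% had an old to young ratio as low as that of Cdh1 or lower.

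The number of peaks per library varied, from 123776 to 130409 in young and from 112125 to 136849 in old liver. With the same 90000 strongest peaks taken from every library, the Cdh1 locus held 6, 10 and 7 regions in young and 3, 1 and 3 in old liver (exact permutation p = 0.1), and 0.282% of the 5312 loci that then had a young mean of at least 5 regions had a ratio as low as that of Cdh1 or lower. With peaks of -log10 q of at least 5, the locus held 2, 4 and 3 regions in young and 1 in each old liver (exact permutation p = 0.1). Its ratio was then matched by a larger share, 2.32% of the 1765 loci with a young mean of at least 5 regions, a set that no longer included Cdh1. In kidney the same locus held 13, 15 and 12 regions in young and 9, 11 and 10 in old libraries (exact permutation p = 0.1), and with the same number of peaks the kidney groups overlapped, at 11, 11 and 10 against 9, 11 and 9. Fewer regions in every old kidney were found at 11.6% of all loci and at 21.8% of the 7880 loci with a young mean of at least 5 regions, of which 36.0% had a ratio as low as that of Cdh1 in kidney or lower. In liver, young and old counts at the loci of the other zonation genes overlapped with all peaks taken. With the same number of peaks, Lgr5 had 5, 3 and 4 regions in young and 1, 1 and 2 in old liver. Hsd17b13 then had 3, 3 and 4 against 1, 2 and 1, and 5.32% of all gene loci had fewer regions in every old liver. With -log10 q of at least 5, Sds had 2, 2 and 3 against 0, 1 and 0, beside 6.76% of loci.

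Of the 19 merged liver regions at Cdh1, 12 were seen only in young livers, 3 only in old livers and 4 at both ages. The Lgr5 locus was similar, with 18 regions, 12 only in young, 3 only in old and 3 at both ages. Lgr5 and Axin2 each had 1 region that was present in all 3 young and in no old liver. At Cdh1, 4 regions lay before the gene, 1 covered the start of the gene and 14 lay in intron 2, which is long. A total of 2 regions were present in all 3 young and in no old liver, against 0.985% of all 353652 merged liver regions, and none showed the opposite pattern, against 0.543%. Both lay in intron 2. The first, chr8:106605688-106606204, was centred 2595 bases after the start and had no kidney counterpart. The second, chr8:106623009-106623383, was centred 19845 bases after the start and was open in 6 of 6 kidney libraries, with a mean fold enrichment over background of 6.09 in young and 4.40 in old kidney. The promoter peak itself was called in 2 of 3 young and 1 of 3 old livers.

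**Figure D2:**
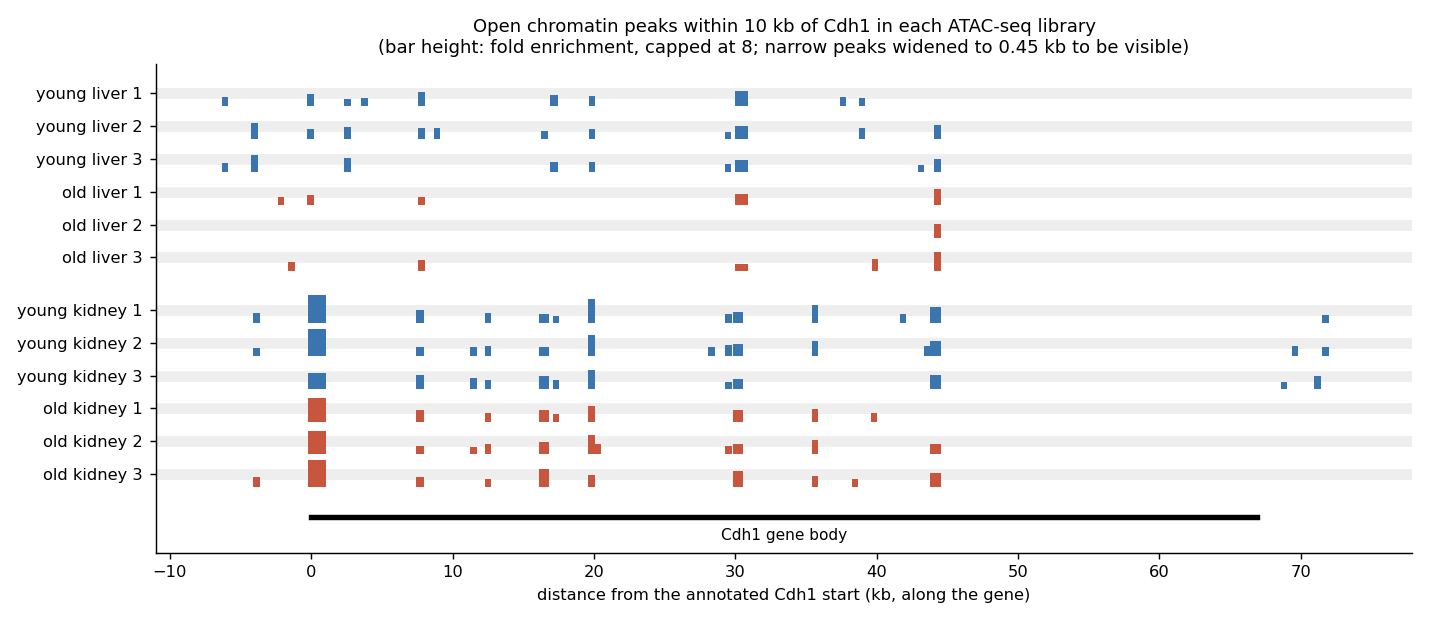
Open chromatin regions around Cdh1 in each ATAC-seq library, with distance from the annotated start in kb on the horizontal axis and 1 row per library. Each bar is a region in which that library had a peak, and its height is the fold enrichment over background, cut at 8. Young livers show 9 to 11 regions and old livers 1 to 5, while the kidney rows show 9 to 15.

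The sequences of these 2 intron 2 regions are shown because they were the only ones at the locus open in every young and in no old liver. Each is the central 300 bases on the + strand of GRCm38, the assembly of mm10, at chr8:106605796-106606095 and chr8:106623046-106623345. Capitals mark matches to motifs searched on both strands.
Cdh1 intron 2 region at 2595 bases: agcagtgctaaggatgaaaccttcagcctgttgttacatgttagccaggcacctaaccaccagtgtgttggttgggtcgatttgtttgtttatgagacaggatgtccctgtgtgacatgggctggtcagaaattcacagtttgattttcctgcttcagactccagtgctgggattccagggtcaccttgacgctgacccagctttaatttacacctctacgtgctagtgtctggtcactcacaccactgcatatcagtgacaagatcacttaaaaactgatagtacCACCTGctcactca
Cdh1 intron 2 region at 19845 bases: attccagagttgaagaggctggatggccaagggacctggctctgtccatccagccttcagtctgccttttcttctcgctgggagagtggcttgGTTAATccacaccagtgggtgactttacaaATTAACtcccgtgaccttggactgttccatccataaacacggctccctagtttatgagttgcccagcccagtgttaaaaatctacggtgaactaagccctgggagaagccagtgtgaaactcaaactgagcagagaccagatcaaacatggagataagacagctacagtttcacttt

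The first holds 1 match to CACCTG, the E-box letters read by the SNAI and ZEB repressors, at bases 287 to 292. The second holds GTTAAT, a half-site of the hepatocyte factor HNF1, at bases 94 to 99 and, on the opposite strand, at bases 124 to 129. These letters are common: CACCTG occurs in 19.7% and GTTAAT in 8.91% of the 300-base centres of liver regions. No match to TCF/LEF (CTTTGA), AP-1 (TGANTCA), HNF4 (AAAGTCCA) or FOX (TGTTTAC) letters was found in either window. A match is a description of the letters and not of a bound factor.

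The other 4 periportal genes did not separate young from old liver. Hal (chromosome 10, 93488768 to 93519304, + strand) encodes histidine ammonia-lyase, which opens histidine breakdown. Its levels were 581, 621, 260 and 276 CPM in young and 329, 695, 317 and 593 CPM in old liver. Each age held both low and high libraries, and the log2 fold change was 0.09 ± 0.30 (SE).

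Gls2 (chromosome 10, 128194457 to 128210004, + strand) encodes the liver glutaminase, which releases ammonia from glutamine. It stood at 623, 571, 245 and 494 CPM in young and at 294, 648, 256 and 556 CPM in old liver. Old replicates 1 and 3 were low for both Hal and Gls2, and so was young replicate 3. The log2 fold change of Gls2 was -0.23 ± 0.32 (SE).

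Sds (chromosome 5, 120476526 to 120483932, + strand) encodes serine dehydratase, which turns serine into pyruvate. It measured 247, 250, 111 and 186 CPM in young and 156, 189, 178 and 187 CPM in old liver, and the old range lay inside the young range (log2 fold change -0.21 ± 0.23, SE). Reads were counted without regard to strand and 21.3% of the exon length of Sds overlaps genes on the other strand, so its counts are uncertain. Smaller overlaps, of 2.79% to 3.80%, apply to Gls2, Glul and Axin2. Hsd17b13 (chromosome 5, 103955440 to 103977410, - strand), which encodes an enzyme of lipid droplets, measured 342, 266, 320 and 353 CPM in young and 193, 323, 195 and 341 CPM in old liver, and old replicates 1 and 3 lay below every young library (log2 fold change -0.39 ± 0.22, SE).

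Among the pericentral genes, Glul (chromosome 1, 153899944 to 153909723, + strand) encodes glutamine synthetase, the enzyme that fixes ammonia in the last hepatocytes before the central vein. It measured 885, 1070.4, 1005.3 and 671 CPM in young and 532, 751, 903 and 947 CPM in old liver. The groups overlapped, and the log2 fold change was -0.28 ± 0.21 (SE). Oat (chromosome 7, 132557478 to 132576398, - strand) encodes ornithine aminotransferase, which links ornithine to glutamate. It measured 1274.9, 1710.9, 848 and 919 CPM in young and 584, 1527.7, 525 and 1326.2 CPM in old liver. Old replicates 1 and 3 were again the low ones, and the log2 fold change was -0.35 ± 0.32 (SE).

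Axin2 and Lgr5 respond to WNT signalling. Axin2 (chromosome 11, 108920349 to 108950783, + strand) encodes a scaffold that promotes the breakdown of beta-catenin, and Lgr5 (chromosome 10, 115450311 to 115587780, - strand) encodes a receptor for R-spondins. Both were low. Axin2 measured 9.02, 6.28, 8.89 and 3.29 CPM in young and 3.46, 5.29, 6.15 and 7.29 CPM in old liver, from 73 to 199 reads per library. Lgr5 measured 6.25, 4.78, 2.32 and 3.60 CPM in young and 2.32, 7.53, 5.11 and 9.44 CPM in old liver, from 48 to 220 reads per library. The ages overlapped for both, with log2 fold changes of -0.38 ± 0.30 for Axin2 and 0.42 ± 0.36 for Lgr5 (SE).

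Rgn (chromosome X, 20549787 to 20562089, + strand) encodes regucalcin, a gluconolactonase also known as senescence marker protein. It measured 1815.7, 1854.9, 1604.2 and 2169.3 CPM in young and 1611.2, 1564.0, 1114.7 and 1726.2 CPM in old liver. Old replicate 3 was the lowest, the other old livers lay within or just below the young range, and the log2 fold change was -0.37 ± 0.25 (SE).

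As a description, 1 of the 10 genes, Cdh1, lay among the 2.13% of 12537 genes called in old against young liver, where a call is an adjusted p below 0.05 together with a fold above 2 or below 0.5. Likewise 1 of 10 had groups that did not overlap, beside 9.18% of genes, 2.46% of genes being lower. Since the genes were chosen with this comparison known, nothing is read from these counts. The 9 genes other than Cdh1 had log2 fold changes between -0.39 and 0.42. The median of the 10 was -0.32, beside 0.0035 over all genes tested.

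**Figure D3:**
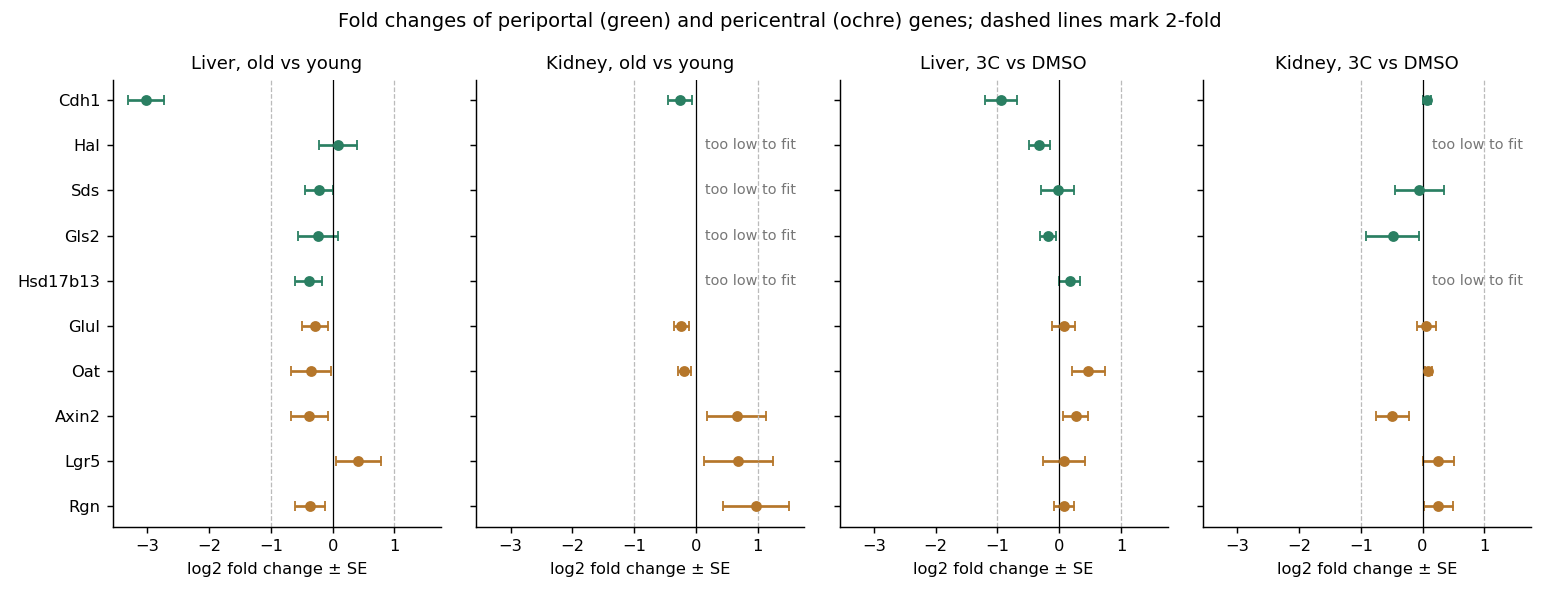
Log2 fold changes of the 10 genes with their SE (bars) on the horizontal axis, 1 panel per comparison, periportal genes in green and pericentral genes in ochre. Cdh1 in old against young liver, at -3.02, lies beyond the dashed 2-fold line, and its value in 3C against DMSO liver, at -0.95, lies just inside it.

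With 3C, the same 9 genes stayed near the DMSO level in liver, with log2 fold changes from -0.32 ± 0.17 for Hal to 0.47 ± 0.27 for Oat (SE). Hal went from 489, 646, 521 and 599 CPM with DMSO to 356, 429, 519 and 458 CPM with 3C, and the highest 3C library lay above the lowest DMSO library. Oat went from 265, 445, 470 and 747 to 583, 573, 733 and 742 CPM, and DMSO replicate 4 exceeded every 3C library.

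In the 3C group Sds stood at 462 CPM in replicate 1 and at 172 to 233 CPM in the other livers, with DMSO at 210 to 320 CPM. Axin2 ranged from 8.78 to 13.3 CPM with DMSO and from 8.86 to 16.8 CPM with 3C, and Lgr5 from 4.40 to 12.1 and from 4.05 to 14.8 CPM. Gls2, Hsd17b13, Glul and Rgn had log2 fold changes between -0.18 and 0.17. In this comparison 0 of the 10 genes and 0.0% of 13042 genes tested were called by edgeR. An unadjusted edgeR p under 0.05 was found for 436 genes, only 3.34% of those tested, and DESeq2 called 3. Groups that did not overlap were found for 0 of the 10 genes and for 1.79% of all genes.

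In kidney the periportal enzymes were near 0. Young kidneys held 0 CPM of Hal in all 4 libraries, 0.0546 to 0.137 CPM of Sds, 0.0702 to 0.168 CPM of Gls2 and at most 0.0546 CPM of Hsd17b13. Old kidney replicate 2 held 21.1 CPM of Hal, 4.84 of Sds, 15.9 of Gls2 and 10.5 of Hsd17b13, which is 2.73% to 4.36% of the liver levels, while the other old kidneys held at most 0.179, 0.320, 0.526 and 0 CPM. These 4 genes were too low to be fitted in old against young kidney. Gls2 was nonetheless higher in every old than in every young kidney, and the groups of 17.3% of the genes tested did not overlap in either direction.

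Glul and Oat were strongly expressed in kidney too. Glul measured 886, 1014.9, 807 and 1042.8 CPM in young and 774, 890, 813 and 782 CPM in old kidney (log2 fold change -0.24 ± 0.13, edgeR adjusted p = 0.234). Oat measured 580, 625, 723 and 605 CPM in young and 573, 594, 533 and 579 CPM in old kidney (-0.18 ± 0.11, edgeR adjusted p = 0.285). Both pairs of groups overlapped, and without old kidney replicate 2 the values were -0.25 for Glul and -0.18 for Oat. With the length trend removed they were -0.41 and -0.40 and passed the adjusted p without reaching 2-fold (edgeR adjusted p = 0.0309 and 0.0148). Axin2, Lgr5 and Rgn were low, at 0.492 to 35.1 CPM in old and 0.273 to 8.68 CPM in young kidney, and their log2 fold changes of 0.67 ± 0.48, 0.69 ± 0.55 and 0.98 ± 0.54 had edgeR adjusted p values of 0.369, 0.425 and 0.244. Without old kidney replicate 2 those of Axin2, Lgr5 and Rgn were 0.22, 0.45 and 0.16.

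None of the 6 genes fitted in old against young kidney was called, beside 6.08% of 14495 genes, 5.68% higher and 0.407% lower. Over all genes, the 823 called higher and 59 called lower became 857 and 337 without old kidney replicate 2. With 3C, none of the 8 genes fitted in kidney was called, beside 0.0% of 14974 genes, of which 1786 (11.9%) had an unadjusted p under 0.05 by edgeR and 5 were called by DESeq2. Their log2 fold changes lay between -0.49 for Axin2 and 0.26 for Rgn and Lgr5, with edgeR adjusted p values of 0.512 to 0.978. All 8 overlapped between DMSO and 3C kidney, where the groups of 7.07% of genes did not.

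Levels of different genes were compared per kilobase of exon. In young liver the order of mean level ran from Rgn, at 1158 CPM per kb, through Oat at 503, Glul at 273, Hsd17b13 at 149, Gls2 at 139, Sds at 117 and Hal at 78.3 to Cdh1 at 8.59, Axin2 at 1.25 and Lgr5 at 0.413. Among Hsd17b13, Gls2, Sds and Hal, neighbours in this order differed by about an SD or less, with SDs of 17.9 to 48.2 CPM per kb, while Hal and Cdh1 lay further apart, with SDs of 34.7 and 2.08. In old liver Cdh1, at 1.07 ± 0.40 CPM per kb, stood beside Axin2 at 1.01 ± 0.29, and in 3C liver it stood below Axin2, at 1.40 ± 0.24 against 2.31 ± 0.59 (SD, n = 4). In young kidney Cdh1 followed, at 49.2 ± 9.64 CPM per kb, Glul at 282 ± 33.3 and Oat at 268 ± 26.6.

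Skin fibroblasts had an order of their own. Oat led at 123 CPM per kb with DMSO. Lgr5 at 8.68 ± 0.80 and Glul at 8.25 ± 1.36 followed, within an SD of each other (n = 3). With 3C, Glul at 10.3 ± 0.41 stood above Lgr5 at 5.98 ± 0.30. In CPM, Lgr5 measured 79.7, 94.7 and 92.8 with DMSO and 64.9, 59.8 and 59.4 with 3C, above every liver and kidney library. The fibroblast groups of Lgr5 did not overlap, as did not those of 26.1% of the 12555 genes with a mean of at least 1 CPM, 9.94% being lower with 3C, and this difference was not tested. Hal, Rgn, Cdh1 and Hsd17b13 were at most 0.321 CPM in any fibroblast library.

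Promoter accessibility gave a further readout in the untreated tissues. The highest peak within 1 kb of the start was taken in each ATAC-seq library, with its fold enrichment over local background as called for that library. In liver the peaks of the pericentral genes Axin2 and Oat were higher in every old library than in every young one. Axin2 had 2.62, 3.37 and 2.96 in young and 5.75, 5.18 and 4.75 in old liver. Oat had 3.75, 3.31 and 3.40 in young and 5.66, 4.49 and 5.44 in old liver. The groups did not overlap for either gene (exact permutation p = 0.1 for both, the smallest possible), while the RNA of both genes overlapped between the ages.

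Periportal Hal and pericentral Lgr5 had the opposite order. Hal had 3.04, 3.55 and 3.40 in young and 2.54, 2.70 and 2.32 in old liver, and Lgr5 had 8.15, 5.71 and 5.53 in young and 4.82, 5.25 and 5.36 in old liver (exact permutation p = 0.1 for both). The peaks of Gls2, Hsd17b13 and Glul overlapped between the ages (exact permutation p = 0.8, 0.3 and 0.6), and Cdh1, Sds and Rgn lacked a peak in at least 3 of the 6 livers. In all, 4 of the 7 genes with a peak in all 6 livers did not overlap, 2 in each direction, beside 14.1% of 12374 genes, 8.23% higher and 5.89% lower in old liver. With peaks of -log10 q of at least 5, only Gls2, Glul, Oat and Lgr5 had a peak in all 6 livers. Of these 4, Oat and Lgr5 did not overlap, and the share over all genes was not computed for such peaks. Axin2 then had a peak in 1 of 3 young and 3 of 3 old livers, and Hal in 3 of 3 and 1 of 3.

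**Figure D4:**
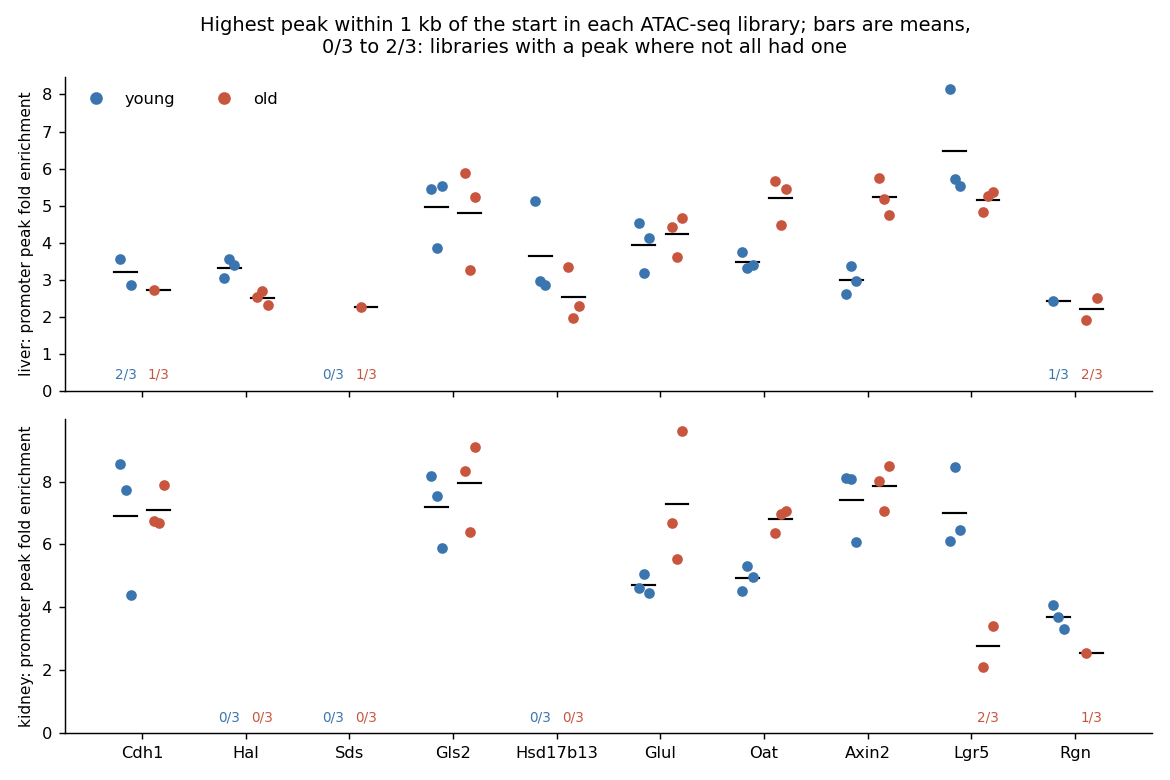
Fold enrichment over background of the highest ATAC-seq peak within 1 kb of each start, on the vertical axis, in liver (top) and kidney (bottom). Points are libraries, bars are means, and fractions give how many libraries had a peak where not all had one. In liver the old points lie above the young ones for Oat and Axin2 and below them for Hal and Lgr5.

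In kidney the promoter peak of Cdh1 was present in all 6 libraries, at 8.57, 7.74 and 4.37 in young and 6.75, 6.69 and 7.88 in old kidney (exact permutation p = 0.9). Oat was higher in every old kidney, at 6.37, 6.97 and 7.06 against 4.52, 5.30 and 4.95, and so was Glul, at 6.69, 5.55 and 9.61 against 4.61, 5.07 and 4.46 (exact permutation p = 0.1 for both). A share of 24.9% of 13850 genes did not overlap between young and old kidney, and 16.3% of the 13850 were higher in every old library. Hal, Sds and Hsd17b13, whose RNA was near 0 in kidney, had no promoter peak in any kidney library. Lgr5 had a peak in 3 of 3 young and 2 of 3 old kidneys, and Rgn in 3 of 3 and 1 of 3.

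The promoter sequences of Axin2, Oat and Hal are shown because their peaks did not overlap between young and old liver. They are RefSeq promoters on GRCm38.p6, from 250 bases before to 50 bases after the start, written along the gene. Axin2 is chr11:108920099-108920398 on the + strand, Oat is chr7:132576349-132576648 on the - strand and Hal is chr10:93488518-93488817 on the + strand. Capitals mark matches on either strand to CTTTGA (TCF/LEF), TGANTCA (AP-1), CCAAT and TATAAA.
Axin2 promoter: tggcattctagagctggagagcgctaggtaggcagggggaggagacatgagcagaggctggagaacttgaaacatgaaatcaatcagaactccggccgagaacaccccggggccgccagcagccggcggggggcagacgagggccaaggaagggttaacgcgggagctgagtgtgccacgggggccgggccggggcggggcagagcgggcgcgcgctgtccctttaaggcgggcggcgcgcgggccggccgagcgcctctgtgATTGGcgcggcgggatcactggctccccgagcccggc
Oat promoter: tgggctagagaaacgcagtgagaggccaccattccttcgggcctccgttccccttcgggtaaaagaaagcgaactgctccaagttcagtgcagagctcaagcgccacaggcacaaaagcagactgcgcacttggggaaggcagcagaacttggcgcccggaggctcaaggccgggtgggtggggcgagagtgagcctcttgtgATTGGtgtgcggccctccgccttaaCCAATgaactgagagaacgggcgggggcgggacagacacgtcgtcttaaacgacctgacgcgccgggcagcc
Hal promoter: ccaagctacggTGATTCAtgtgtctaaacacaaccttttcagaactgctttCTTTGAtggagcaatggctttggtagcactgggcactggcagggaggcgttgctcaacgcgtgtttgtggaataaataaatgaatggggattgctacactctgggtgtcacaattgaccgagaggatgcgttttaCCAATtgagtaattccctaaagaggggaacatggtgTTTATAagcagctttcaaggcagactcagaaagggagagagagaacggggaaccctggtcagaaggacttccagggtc

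Axin2 and Oat had promoters rich in G and C, at 70.0% and 61.7%, with 31 and 22 CpG pairs, whereas Hal had 47.7% and 7. Hal held a CTTTGA at -199, a TGANTCA at -239, a CCAAT at -64 and, on the opposite strand, a TATAAA at -28. Oat held CCAAT at -22 and, on the opposite strand, at -47, and Axin2 held it at 13 on the opposite strand. Promoter entries matched 5 of the 10 genes. The other 2, Glul and Hsd17b13, held CCAAT at -113 and -50 and CTTTGA at -184 and, on the opposite strand, at -18. Among all 32851 promoters, 16% hold CTTTGA, 7.81% TGANTCA, 37.4% CCAAT and 13.6% TATAAA.

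The other genes of each zone, from lists of known zonation markers, were examined in the same fits. Of 21 other periportal genes tested, 0 were called in old against young liver, beside 1.69% called higher and 0.439% called lower of 12537 genes, and their median log2 fold change was -0.04. Ctsc, which encodes cathepsin C, passed the adjusted p without reaching 2-fold, at 185 ± 23.1 CPM in young and 348 ± 67.7 CPM in old liver (0.85 ± 0.19, edgeR adjusted p = 0.0435). Cyp2f2, a periportal cytochrome P450, stood at 1046.5 ± 39.1 and 670 ± 183 CPM (-0.72 ± 0.21, edgeR adjusted p = 0.116).

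Of 22 other pericentral genes tested, 1 was called lower and 0 higher, and 19 had a log2 fold change below 0 with a median of -0.44. The called gene was Cyp3a11, a major drug-metabolising cytochrome P450, which fell from 2741 ± 540 to 271 ± 243 CPM (log2 fold change -3.52 ± 0.62, edgeR adjusted p = 0.0177). Its call was lost without young liver replicate 3 (edgeR adjusted p = 0.0541) and without old liver replicate 3 (0.0622). Cyp3a11 has close paralogs in the Cyp3a cluster with which reads can be shared.

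Genes that differ between male and female livers moved in the same comparison. Of 6 male-biased liver genes tested, 4 were called lower in old liver, beside 0.439% of all genes tested, among them Slco1a1, an organic anion transporter, from 261 ± 108 to 1.2 ± 0.33 CPM, and Hsd3b5, a steroid dehydrogenase, from 35 ± 21.7 to 0.0589 ± 0.0729 CPM. Of 7 female-biased genes tested, 3 were called higher, beside 1.69% of all genes, among them Cyp3a41a, from 182 ± 66.4 to 588 ± 71.6 CPM (edgeR adjusted p = 0.0104). The calls of the other two, A1bg and Cyp3a44, were lost in 2 and 3 of the 14 other fits, among them those without young liver replicate 2. The genes Ddx3y, Eif2s3y, Kdm5d and Uty of the Y chromosome were listed at 0 in all 16 livers and all 16 kidneys, whereas the 6 fibroblast libraries held 30.6 to 42.6 CPM of Ddx3y and 41.7 to 49.8 CPM of Eif2s3y. The part of these genes' program in the Cdh1 and Cyp3a11 differences was not tested.

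**Figure D5:**
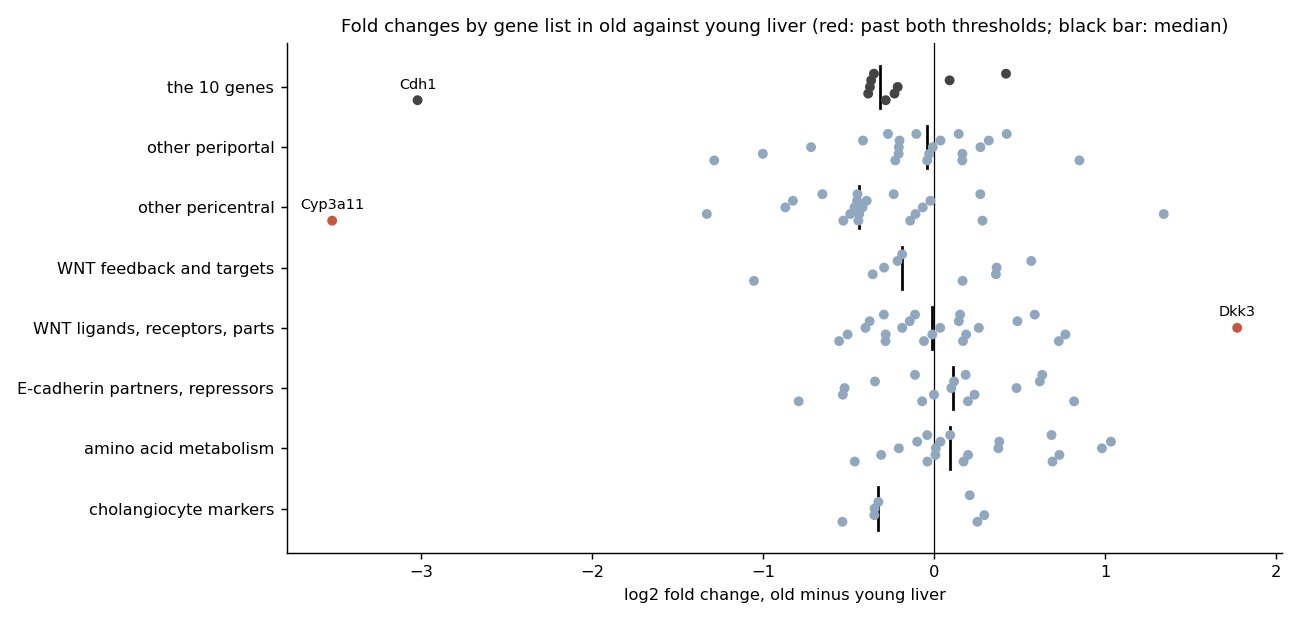
Log2 fold changes of single genes in old against young liver on the horizontal axis, with 1 row each for the 10 genes, the other periportal and pericentral genes, both WNT lists, the E-cadherin partners and repressors, the amino acid metabolism list and the cholangiocyte markers. Black bars are the median of each row, the 10 genes are dark and list genes past both thresholds are red. Cdh1 at -3.02, Cyp3a11 at -3.52 and Dkk3 at 1.77 lie apart from the other genes drawn, and the medians of these rows lie between -0.44 and 0.11.

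The WNT pathway was examined because it maintains the pericentral program. None of 9 feedback and target genes tested was called in old liver, with a median log2 fold change of -0.19. Sp5, a target gene, stood at 1.30 ± 0.58 and 0.673 ± 0.668 CPM, and Nkd1, a feedback inhibitor, at 5.61 ± 0.68 and 7.61 ± 1.29 CPM (edgeR adjusted p = 0.536 and 0.448). Of 23 ligands, receptors and other parts, 1 was called higher and 0 lower, beside 1.69% and 0.439% of all genes. The called gene was Dkk3, which encodes a secreted protein and rose from 2.02 ± 0.61 to 7.39 ± 1.67 CPM (log2 fold change 1.77 ± 0.29, edgeR adjusted p = 0.0134). Without young liver replicate 1 the adjusted p of Dkk3 was 0.0556.

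The list of E-cadherin partners and repressors, which also holds Vim, gave 0 calls of 16 tested in old liver, beside 2.13% of 12537 genes. Its median log2 fold change was 0.11. Vim, which encodes vimentin, passed the adjusted p alone, at 23.9 ± 1.66 and 44.0 ± 6.88 CPM (0.82 ± 0.19, edgeR adjusted p = 0.0486), and Jup, which encodes the junction protein plakoglobin, stood at 38.2 ± 5.75 and 61.4 ± 11.6 CPM (0.62 ± 0.15, edgeR adjusted p = 0.0557). None of 19 genes of glutamine, histidine, serine and ornithine metabolism was called, beside the same 2.13% of genes, with a median of 0.09. With 3C, none of these lists held a called gene in liver, beside 0.0% of 13042 genes, and the medians were between -0.07 and 0.08.

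Markers of other cells moved with age as well. In old liver 4 of 12 macrophage markers and 4 of 5 B and plasma cell markers were called higher, beside 1.69% of all genes tested, with summed levels of 765 to 1133 CPM in young and 1359 to 2615 CPM in old liver for macrophages and of 3.99 to 4.78 and 18.9 to 81.1 CPM for B and plasma cells. The calls of the macrophage markers Lyz2, Vsig4, Cd68 and Cd5l were lost in 6, 6, 6 and 7 of the 14 other fits, and those of the B and plasma cell markers Ms4a1, Mzb1 and Cd79a in 6, 6 and 7, while that of Jchain was kept. All 7 were lost when young liver replicate 1, 2 or 3 or old liver replicate 3 was left out. The hepatocyte markers summed to less in every old than in every young liver, at 121890 to 140580 against 142630 to 178860 CPM, with a median log2 fold change of -0.36. Trf went the other way, from 15300 ± 618 to 23866 ± 9694 CPM, higher in every old liver (edgeR adjusted p = 0.451). So did the mean of Fgb, from 5741 ± 686 to 10516 ± 5285.5 CPM, with groups that overlapped (edgeR adjusted p = 0.376). None of 7 hepatocyte, 5 T cell and 10 stellate cell and fibroblast markers was called, beside 2.13% of all genes tested. Of 11 endothelial markers 1, Lyve1, was called lower, beside 0.439% of all genes. It fell from 15.7 ± 4.18 to 6.73 ± 1.04 CPM (edgeR adjusted p = 0.0182), and its call was lost in 5 of the 14 other fits. The part of these cells in the values of the 10 genes was not tested.

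In kidney, where E-cadherin joins tubule cells, 2 of 16 genes of the same E-cadherin list, Vim and Snai1, were called higher with age, beside 5.68% of all genes tested. The median log2 fold change of the list was -0.046 beside 0.021 over all genes. Vim is itself neither a partner nor a repressor of E-cadherin. Vim rose from 57.3 ± 1.79 to 152 ± 38.3 CPM (log2 fold change 1.36 ± 0.15, edgeR adjusted p = 0.00094). Snai1, which encodes a repressor of Cdh1, stood at 1.37 ± 0.14 and 3.08 ± 0.78 CPM (1.14 ± 0.27, edgeR adjusted p = 0.0232), and its call was lost in 7 of the 14 other fits, with a value of 0.64 after removal of the length trend. Of the WNT lists, 1 of 12 feedback and target genes, Tcf7, and 3 of 25 ligands and other parts, Sfrp5, Rspo1 and Wnt4, were called higher, beside the same 5.68%, with medians of 0.26 and -0.25. Their log2 fold changes were 1.81 ± 0.39, 2.13 ± 0.35, 1.65 ± 0.28 and 2.03 ± 0.52, and the calls of Tcf7 and Wnt4 were lost in 2 and 6 other fits. Without old kidney replicate 2, Vim, Snai1 and these 4 genes were still called, with log2 fold changes of 1.34, 1.19, 1.78, 2.02, 1.66 and 2.11.

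Of 16 other periportal genes tested in old kidney, 1 was called higher and 1 lower, and of 16 other pericentral genes 1 was called higher, beside 5.68% of all genes higher and 0.407% lower, with medians of -0.11 and 0.26. Pck1, which encodes the gluconeogenic enzyme PEPCK, fell from 4348.5 ± 824 to 1472.3 ± 220 CPM (-1.59 ± 0.18, edgeR adjusted p = 0.00104). Pigr, the receptor that carries antibodies across epithelia, rose from 43.7 ± 3.50 to 132 ± 44.7 CPM, and Aldh1a1, a retinaldehyde dehydrogenase, from 15.6 ± 1.55 to 62.7 ± 22.2 CPM (edgeR adjusted p = 0.0019 and 0.00114). Liver holds far more of both, at 2099 CPM of Pigr and 910 CPM of Aldh1a1 in old liver, and old kidney replicate 2, the library with the raised Alb level, was the highest old kidney for both, at 192 CPM of Pigr against 83.7 to 127 CPM and 85.1 CPM of Aldh1a1 against 34.3 to 74.2 CPM in the others. Without it the log2 fold changes were 1.37 for Pigr, 1.81 for Aldh1a1 and -1.59 for Pck1, and all 3 were still called (edgeR adjusted p = 0.0016, 0.0014 and 0.0018). With 3C, no gene of any list was called in kidney.

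Markers of immune cells moved in the same comparison of old and young kidney. All 8 macrophage markers tested, all 6 B and plasma cell markers and 5 of 6 T cell markers were called higher, beside 5.68% of all genes tested. Lyz2, the lysozyme gene of macrophages, rose from 35.4 ± 6.49 to 426 ± 219 CPM, and Jchain, which encodes the joining chain of antibodies, from 5.50 ± 1.67 to 365 ± 59.2 CPM (edgeR adjusted p = 0.0004 and 5.8e-06). The summed macrophage markers were at 147 to 172 CPM in young and 687 to 1579 CPM in old kidney, those of B and plasma cells at 5.62 to 11 and 375 to 559 CPM, and those of T cells at 4.75 to 5.57 and 19.6 to 34.8 CPM. The part of these cells in the kidney values of Cdh1, Vim, Snai1, Pigr and the WNT genes was not tested.

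How the 10 genes varied among livers of the same group was described by correlation over the 16 livers after each group's mean was taken out. These libraries share depth and composition effects, and 9179 genes with a mean of at least 5 CPM were compared. Over all 16 livers Cdh1 had a median r of -0.03 with the other 9 genes and a range of -0.28 to 0.27, but the sets differed. With Oat its r was 0.49 in untreated livers and -0.84 in DMSO and 3C livers, and with Hal it was 0.57 and -0.62. Its nearest genes were Rgs3 at 0.85, Prpf38a at 0.77 and Ntmt1 at 0.73. Hal had an r of 0.83 with Gls2 (0.87 in untreated and 0.30 in DMSO and 3C livers) and of 0.82 with the pericentral gene Oat (0.92 and 0.56), and Glul one of 0.72 with Axin2 (0.82 and 0.53). Pairs of the same zone had a median r of 0.33 (20 pairs) and pairs of different zones 0.30 (25 pairs). In untreated livers alone these medians were 0.44 and 0.37, and in DMSO and 3C livers alone 0.23 and 0.095.

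The nearest genes of the others were Mthfd1 for Hal at 0.95, Gckr for Gls2 at 0.96, Tbc1d10a for Sds at 0.90, Tmcc1 for Hsd17b13 at 0.91, Tax1bp1 for Glul at 0.91, Aldh7a1 for Oat at 0.92, Agps for Axin2 at 0.88, Slc25a51 for Lgr5 at 0.92 and Ugt2b36 for Rgn at 0.91. In DMSO and 3C livers alone the r of Gls2 with Gckr was 0.41 and that of Axin2 with Agps 0.59, against 0.99 and 0.97 in untreated livers alone. The SD of the log2 level within groups was smallest for Rgn, at 0.22, and largest for Lgr5, at 0.72, with Cdh1 at 0.45.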

How the data were processed

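RNA-seq was measured in 38 libraries and ATAC-seq in 12. The authors deposited raw counts of reads per gene, made with Trimmomatic 0.39, HISAT2 2.2.1 on mm10 and HTSeq 0.12.4 without regard to strand. Peaks were called by the authors per library with MACS2 after Bowtie2 2.3.5.1 alignment and removal of duplicates, and the deposited files give a fold enrichment over local background (a ratio) and a -log10 q for each peak. HTSeq tallies of reads outside genes, 8.05% to 21.3%, were left out. Libraries held 14238228 to 43704147 gene counts, and levels of a few CPM rest on few reads.

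Each comparison was fitted with edgeR 4.0.16 (TMM, filterByExpr with a minimum count of 10, quasi-likelihood F test) over all genes with Benjamini-Hochberg adjustment. A gene was called at an adjusted p below 0.05 and a fold above 2 or below 0.5, and the SE is the log2 fold change divided by the root of F. Exons came from GENCODE vM21, which holds 24534 of the 24984 gene names, on GRCm38, the assembly of mm10. Peaks were compared by a two-sided exact permutation test over 3 and 3 libraries.

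Groups came from the labels. The 10 genes, the lists and the rule for named genes (in each list up to 4 called genes in each direction, or else up to 2 with the smallest p, and for likeness the genes of highest r apart from unnamed gene models, those with Gm or Rik symbols) were chosen with earlier results of these data known, and 1 gene of the female-biased list is not reported here. Region counts at loci, also with the same number of peaks or a -log10 q of at least 5, and removal of the length trend were added after the data were seen. On simulated data, 193 of 200 genes changed 4-fold were recovered among 12570 genes for liver age, with 9 false calls. Other fits used DESeq2 1.42.0, other size factors or filters, the replicate number as a block, or 1 library fewer. Fibroblasts were used for levels only.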

Additional observations from a re-analysis of the deposited data

Results flagged for a closer look

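Among 67 pairs of a gene and a group of 4 libraries with a mean of at least 1 CPM, 7 had 1 library far from the others by Dixon's test, where chance gives about 1 in 20. Old kidney replicate 2 accounted for 4 of them, with 21.1 CPM of Hal, 4.84 CPM of Sds, 15.9 CPM of Gls2 and 10.5 CPM of Hsd17b13, against at most 0.526 CPM in the other old kidneys. These 4 reached a mean of 1 CPM only through that library, so they had to stand out and their number is not to be read against the chance rate. In 3C kidney replicate 1, Glul stood at 1130.5 CPM against 744 to 763 CPM in the other libraries, and Axin2 at 1.88 CPM against 4.45 to 4.70 CPM. Rgn stood at 1303.2 CPM in DMSO liver replicate 4 against 1023.8 to 1032.7 CPM in the other DMSO livers. The causes were not tested.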

How the results depend on the processing

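In all 140 alternative values of liver age and all 140 of liver 3C, the 10 genes moved by less than their SD within groups, and Cdh1 kept its sign. Signs turned among values near 0, for Hal in liver age (-0.082 to 0.26) and for Sds (-0.40 to 0.12), Glul (-0.041 to 0.20), Lgr5 (-0.24 to 0.31) and Rgn (-0.011 to 0.17) in liver 3C. In kidney age all 83 values kept their sign and none passed both thresholds (Glul and Oat passed the adjusted p alone with the length trend removed), while 6 of 107 of kidney 3C changed sign. In kidney 3C, Sds was 0.0024 with the replicate block, 0.026 with the length trend removed and -0.25 to 0.32 without 1 library, and Glul was -0.13 to 0.13. Counts of called genes moved more. In liver age 267 genes were called, against 642 by DESeq2, 139 with the replicate block and 76 to 444 without 1 library (76 without young liver replicate 3, 444 without old liver replicate 1). In liver 3C DESeq2 called 3 and in kidney 3C 5, and edgeR called 0 to 3 in kidney 3C without 1 library. In kidney age the adjusted p alone gave 1669 genes against 882. Replicate numbers did not pair the libraries within the comparisons, since same-numbered libraries correlated at over 0.1 in 2 of 4 pairs of liver age, 2 of liver 3C, 1 of kidney age and 0 of kidney 3C. Between tissues, same-numbered young kidney and liver libraries did so in 4 of 4 pairs and old ones in 2 of 4. With the length trend removed the sign turned for Apob in liver 3C (-0.064) and for Cux2 in kidney age (0.073), and it also turned for Xist in liver age (-0.95 to 0.35 without 1 library). With peaks of -log10 q of at least 5, only Gls2, Glul, Oat and Lgr5 had a promoter peak in all 6 livers, and 2 of them, Oat and Lgr5, did not overlap. The old minus young difference in regions at Cdh1 was then -2.0 in liver and -1.33 in kidney, and in kidney it was -1.0 with the same number of peaks. The median correlation of Cdh1 with the other 9 genes was 0.21 in untreated livers alone and -0.41 in DMSO and 3C livers alone. The causes were not tested. Low counts limit Axin2 and Lgr5, and 3 libraries per group limit ATAC-seq.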
